A study of Saccharomyces cerevisiae with 7 samples.

Results

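Heat shock proteins and molecular chaperones of the budding yeast *Saccharomyces cerevisiae* are described here through 42 genes that encode them, their co-chaperones and the transcription factor Hsf1. The genes were taken by name, and all 42 were found among the 5110 genes of the deposited tables. RNA was sequenced after removal of ribosomal RNA in 7 genotypes with 1 library each, all from cells in midlog growth in the rich medium YPD. A survey compared wild type (BY4741) with the single deletions Δ*fpr3* and Δ*fpr4*, the double deletion Δ*fpr3*Δ*fpr4*, and Δ*sir2*, which share its background. The remaining libraries, Δ*fpr3*Δ*trf5* and, with *FPR4* deleted as well, Δ*fpr3*Δ*fpr4*Δ*trf5*, are haploid progeny of a genetic-array cross with a Y7092-derived query strain that carried *FPR4* on a *URA3* plasmid, so that all comparisons among these 2 and Δ*fpr3* or Δ*fpr3*Δ*fpr4* are made in cells without Fpr3. Fpr3 and Fpr4 are paralogous nucleolar prolyl isomerases and histone chaperones, Sir2 is a histone deacetylase of silent chromatin that served as a control, and Trf5 is a poly(A) polymerase of the TRAMP5 complex, which marks RNAs for the nuclear exosome. Each library came from an isolate of a single colony, and no genotype has a replicate.

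Between 627679 and 1242534 reads were counted per library, with the fewest in the Δ*fpr3*Δ*fpr4*Δ*trf5* library. *FPR3* and *FPR4* had 0 reads in each library whose label deletes them, *SIR2* had 0 in Δ*sir2*, and *TRF5* had 0 in Δ*fpr3*Δ*trf5* and 2 in Δ*fpr3*Δ*fpr4*Δ*trf5* against 21 to 51 elsewhere. *FPR4* had 186 reads in Δ*fpr3*Δ*trf5* and 181 or more in each survey library that keeps it, and *URA3* had 0 in all 7. Whether these *FPR4* reads came from the plasmid or the chromosome was not tested. The libraries without Trf5 also carried marks of the cross. *CAN1* had 3 and 0 reads there against 168 to 214 in the survey, and *LEU2* had 70 and 35 against 0. Loss of Trf5 therefore cannot be told apart from strain background or from the separate preparation of those cells. The Δ*fpr3*Δ*fpr4*Δ*trf5* library also held more of its RPKM (reads scaled to the length of the gene and to the total of the library) in short genes. Against Δ*fpr3*Δ*trf5*, the median log2 fold change was 0.85 for genes of up to 500 bases and -0.14 for those over 3000 bases.

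Chaperones bind unfolded or partly folded proteins and release them in cycles driven by ATP. Hsp70 proteins (Ssa, Ssb, Ssc1, Kar2) are loaded by J-proteins and reset by nucleotide exchange factors, and hand some clients to Hsp90. Hsp60 with Hsp10, and the CCT ring, enclose their clients in a chamber. Hsp104 with Hsp70 pulls proteins out of aggregates that small heat shock proteins hold. Yeast makes many of these proteins at all times and raises others on heat shock, through Hsf1, which binds inverted repeats of GAA in promoters, and through Msn2 and Msn4, which bind AGGGG. Of the 42 genes, 10 were classed from textbook knowledge as stress-induced (*HSP26*, *HSP42*, *HSP78*, *HSP82*, *HSP104*, *SSA1*, *SSA3*, *SSA4*, *SSE2* and *BTN2*) and the other 32 as constitutive.

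The promoters of the members carried Hsf1 repeats more often than promoters at large. The 500 bases before the start codon were read from the reference genome of the build used by the files (sacCer3) and searched for TTCNNGAANNTTC and its complement GAANNTTCNNGAA, which overlap where a repeat runs on. A match stood before 14 of the 42 members (33.3%), 5 of the 10 stress-induced and 9 of the 32 constitutive ones, and before 1.49% of 5041 genes searched. The shorter TTCNNGAA or GAANNTTC stood before 28 members (66.7%) and 35.3% of all genes. AGGGG on either strand stood before 8 of the 10 stress-induced members and 4 of the 32 constitutive members, against 33.9% of all genes. A match describes the letters only. For each of 8 members that later comparisons name, a stretch is given below, read 5′ to 3′ on the strand of the gene. The blocks of the repeat are in capitals. *HSP42*, *HSP104*, *SSA1*, *HSP78* and *BTN2* are stress-induced, and each shows 4 blocks. *SSA2*, the constitutive paralog of *SSA1*, shows 3, *SIS1* shows 5, and *STI1* shows 3. *SSA1* and *STI1* each have a further stretch of 3 blocks that is not printed, at chrI:141670-141702 and chrXV:380801-380833.

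*HSP42*, chrIV:806368-806405: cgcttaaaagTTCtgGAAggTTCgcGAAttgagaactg
*HSP104*, chrXII:88311-88348: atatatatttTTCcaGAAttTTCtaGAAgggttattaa
*SSA1*, chrI:141768-141805: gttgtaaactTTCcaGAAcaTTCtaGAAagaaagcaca
*HSP78*, chrIV:974463-974500: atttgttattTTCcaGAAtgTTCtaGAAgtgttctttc
*BTN2*, chrVII:772100-772137: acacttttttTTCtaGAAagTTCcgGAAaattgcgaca
*SSA2*, chrXII:97696-97728: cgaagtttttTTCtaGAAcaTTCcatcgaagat
*SIS1*, chrXIV:619877-619919: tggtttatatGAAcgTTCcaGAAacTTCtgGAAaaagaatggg
*STI1*, chrXV:380827-380859: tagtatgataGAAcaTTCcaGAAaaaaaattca

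In midlog wild type the constitutive members were among the more abundant RNAs of the cell and the stress-induced members were spread over the whole range. Of the 42 genes, 34 lay above the median gene, which had an RPKM of 37.3, and 13 lay in the top 10% of genes. *SSA2*, a cytosolic Hsp70 (chromosome XII, 95566 to 97485), was the highest member and ranked 16 of all genes with 4476 RPKM. It was followed by the ribosome-bound Hsp70 genes *SSB1* and *SSB2* with 2882 and 2098, the Hsp90 gene *HSC82* with 2247, and *SSE1*, an exchange factor of Hsp70, with 1528. These 5 genes held 64.8 to 69.5% of the members' reads in each library. Of the stress-induced members 5 lay below the median gene in wild type. *HSP26*, a small heat shock protein (chromosome II, 382030 to 382674), had 2 reads there and *SSA3* and *SSA4*, the inducible cytosolic Hsp70 genes, had 22 each. Levels of *SSA1* and *SSA2* may be set low by the counting, since only 54.2% and 54.0% of their 100-base windows occur once in the genome. The same may hold for *SSB1* and *SSB2*, at 68.2% each. The loss of reads was not measured.

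**Figure D1:**
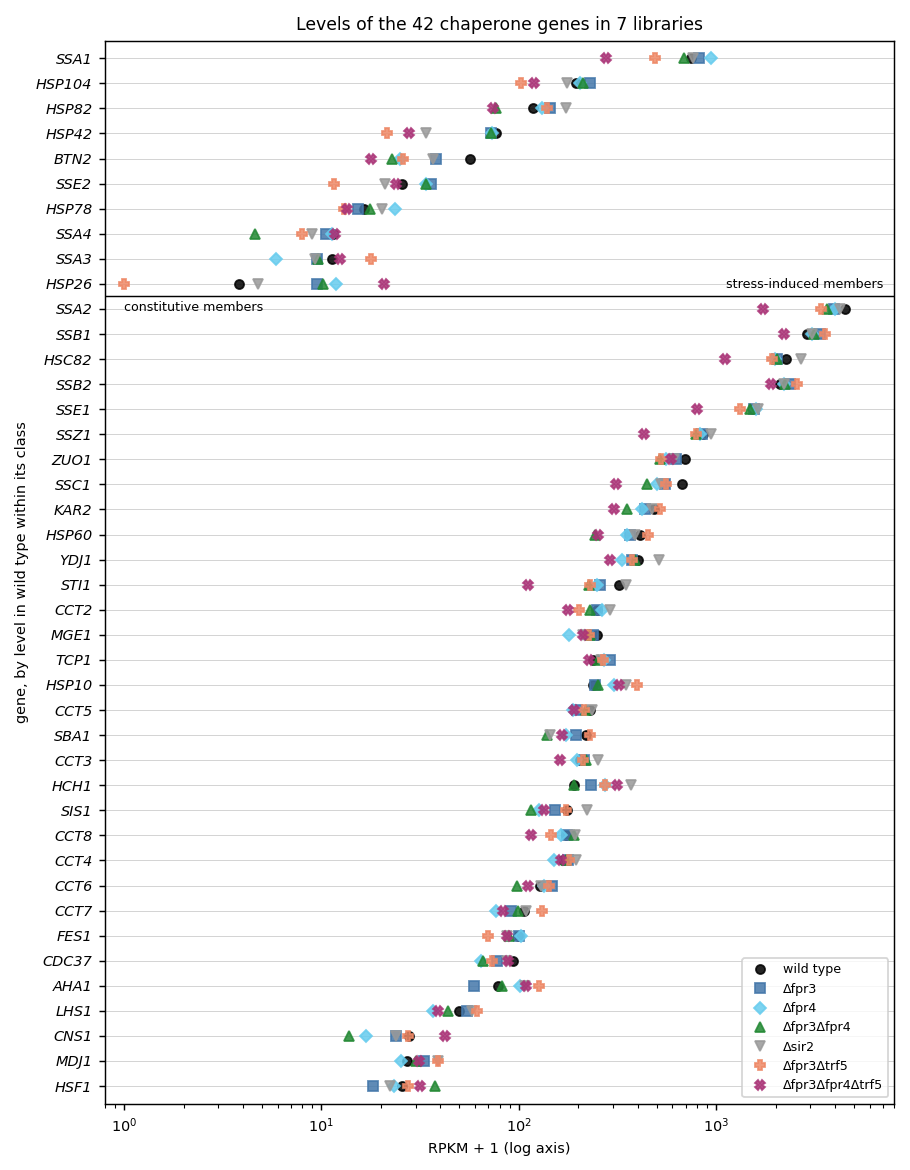
RPKM + 1 on a log axis (horizontal) for each of the 42 genes (vertical, by level in wild type within the stress-induced and the constitutive class), with a symbol for each of the 7 libraries. The Δ*fpr3*Δ*fpr4*Δ*trf5* library is the lowest of the 7 for 17 of the 42 genes and for 16.2% of 4925 genes at large, among them the abundant *SSA2*, *SSB1*, *HSC82* and *SSE1*, and *HSP26* lies at 0 RPKM in Δ*fpr3*Δ*trf5*.

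Across the 5 survey libraries the highest level was under 2 times the lowest for 34 of 42 genes. The share of all genes under this ratio was not computed. Of the 8 exceptions 6 were stress-induced. Among these, *SSA3* had 11 to 22 reads in the survey and *HSP82* 162 to 454. The part of read depth in the ratios was not tested. In the ribosome-bound set the ratio was 1.12 for *SSB2*, 1.16 for *SSB1*, 1.18 for *SSZ1* and 1.34 for *ZUO1*. *SSE1* had the smallest ratio of all members, 1.10. The widest ratios were 3.80 for *HSP26*, which rests on 2 to 8 reads, 2.90 for *SSA4*, which rests on 7 to 23 reads, and 2.57 for *BTN2*, an aggregate-sorting factor. With no replicate, none of these ranges can be set against the spread between cultures of the same genotype.

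The whole list took 3.82% of counted reads in wild type (95% Wilson interval 3.79 to 3.86). Among the mutants of the survey it was highest in Δ*sir2*, at 3.98%, followed by Δ*fpr3* with 3.78%, Δ*fpr4* with 3.65% and Δ*fpr3*Δ*fpr4* with 3.49%. It was 3.59% in Δ*fpr3*Δ*trf5* and 2.30% (2.26 to 2.34) in Δ*fpr3*Δ*fpr4*Δ*trf5*, the lowest of the 7. The stress-induced class ran differently from the constitutive class. Its share lay between 0.231 and 0.292% in the survey, and was 0.167% (0.158 to 0.176) in Δ*fpr3*Δ*trf5* and 0.120% (0.112 to 0.129) in Δ*fpr3*Δ*fpr4*Δ*trf5*. This share follows mostly *SSA1* and *HSP104*, with 1573 and 577 of the 2732 reads of the class in wild type. The constitutive class held 3.26 to 3.72% in the survey and 3.42% in Δ*fpr3*Δ*trf5*, and only the Δ*fpr3*Δ*fpr4*Δ*trf5* library lay apart, at 2.18% (2.14 to 2.22). These intervals, like all intervals given here, cover counting error only.

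**Figure D2:**
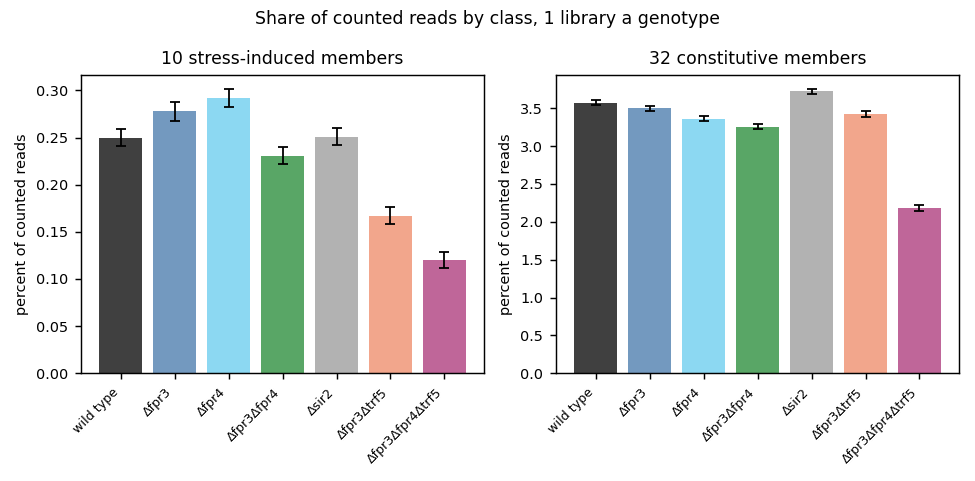
Percent of all counted reads (vertical) taken by the 10 stress-induced (left) and the 32 constitutive members (right) in each of the 7 libraries, with 95% Wilson intervals as error bars. The stress-induced share is lowest in the libraries without Trf5, at 0.167 and 0.120%, while the constitutive share falls below 3% in Δ*fpr3*Δ*fpr4*Δ*trf5* alone.

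For pairs of libraries, a gene was called changed when a chi-square test of its reads against all others gave a Benjamini-Hochberg adjusted p below 0.05 over all genes tested and RPKM + 1 differed at least 1.3-fold. Log2 fold changes are of RPKM + 1, each with the exact 95% interval of the plain fold. These tests compare libraries and not genotypes. In many pairs the median gene itself was off 0, by -0.13 to -0.09 for the mutants of the survey against wild type and by 0.20 and 0.21 for Δ*fpr3*Δ*fpr4*Δ*trf5* relative to Δ*fpr3*Δ*trf5* and to Δ*fpr3*Δ*fpr4*, so that counts are also given after each pair was rescaled to a median of 0.

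**Figure D3:**
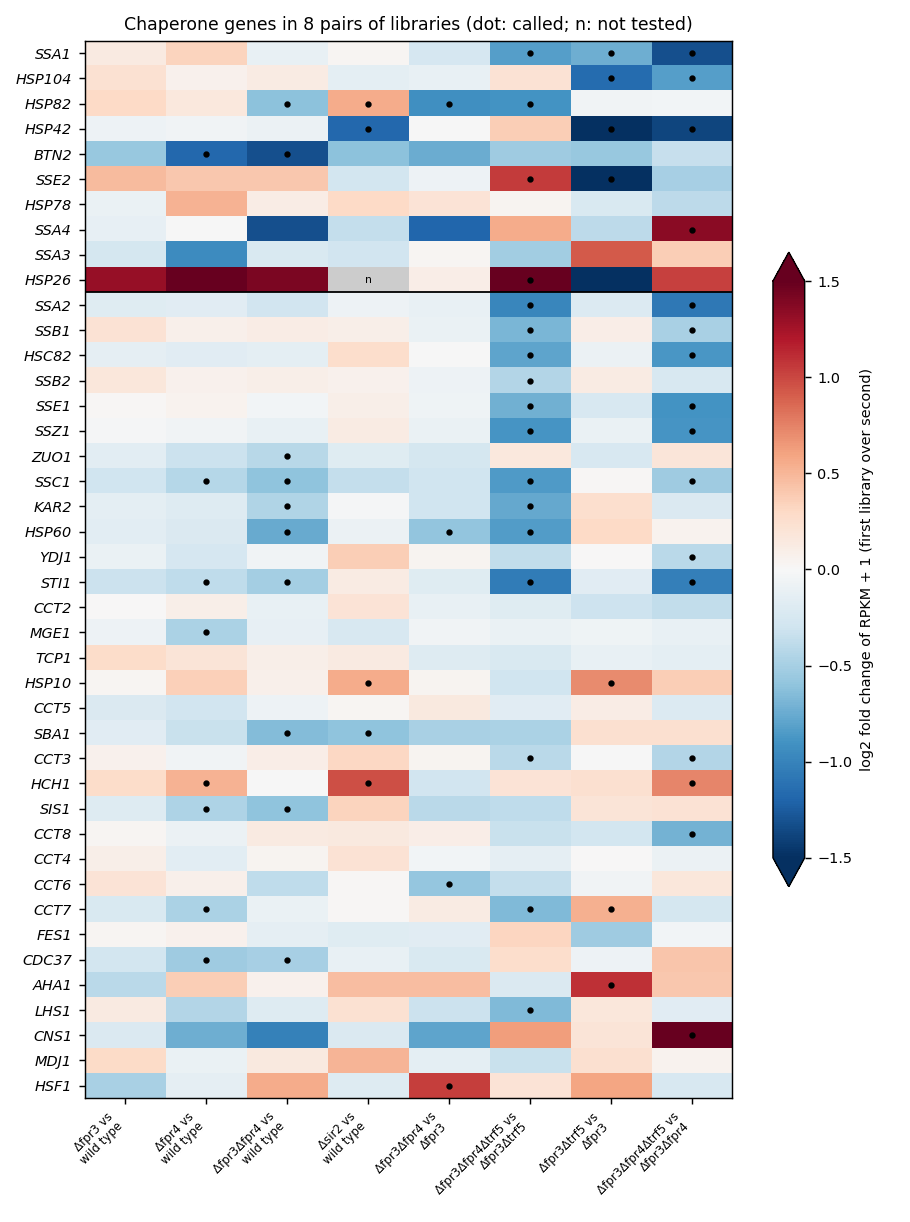
Log2 fold change of RPKM + 1 (colour, clipped at ±1.5, first library over second) for the 42 genes (rows, stress-induced above the line) in 8 pairs of libraries (columns). Black dots mark calls, none in the first column and most in the columns with Δ*fpr3*Δ*fpr4*Δ*trf5*, and n marks *HSP26*, not tested in Δ*sir2*. The 2 values of *HSP26* against the 0 reads of Δ*fpr3*Δ*trf5* depend on the added 1.

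Loss of Fpr3 alone moved no member past the rule, against 12.3% of all genes tested (4.19% higher and 8.07% lower). The median of the members was -0.07 and that of all genes -0.10. With no fold required, 9 of the 42 had an adjusted p below 0.05 by the chi-square test (5 higher, 4 lower), against 16.4% of all genes, and 16 had an unadjusted p below 0.05, both by that test and by an exact binomial test, against 29.3% of all genes by the chi-square test. The larger shifts stayed under the rule. *HSF1*, the regulator itself, went from 67 reads to 47, and *BTN2* from 75 to 50. Rescaled to a median of 0, *HSP82*, the inducible Hsp90 gene, and *TCP1*, a CCT subunit, passed as higher. Of all genes 6.39% were then called higher and 4.44% lower.

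Loss of Fpr4 lowered 7 members and raised 1, where 9.27% of all genes fell and 3.87% rose (13.1% in all). *BTN2* fell furthest, from 75 to 34 reads (log2 fold change -1.18, 95% interval -1.84 to -0.61, adjusted p = 0.000501 by the chi-square test). Of the mitochondrial set *SSC1*, the matrix Hsp70, fell by 0.43 and *MGE1*, its exchange factor, by 0.47. *SIS1*, a cytosolic J-protein, fell by 0.46. *STI1*, which joins Hsp70 to Hsp90, fell by 0.38, and *CDC37*, a kinase-specific co-chaperone of Hsp90, by 0.54. *HCH1*, an activator of Hsp90, rose by 0.52, from 96 to 145 reads. *CCT7* fell by 0.48. Only *BTN2* and *HCH1* of these 8 were called after rescaling, and *SSA1* was then called as higher. Rescaled, 6.11% of all genes were called higher and 5.40% lower.

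In Δ*fpr3*Δ*fpr4* against wild type 10 members fell and 0 rose, where 9.36% of all genes were called lower, 5.07% higher and 14.4% in either direction. The chaperonin *HSP60* (chromosome XII, 663284 to 665002) fell from 409 to 243 RPKM, a log2 fold change of -0.75 (95% interval -0.93 to -0.58). *SSC1* fell by 0.60. Their partners *HSP10* and *MGE1* had values of 0.08 and -0.12 and were not called. The ratio of *HSP10* to *HSP60* RPKM was lowest in wild type, at 0.578, and higher in every mutant, with 0.902 in Δ*sir2*, 0.862 in Δ*fpr4*, 0.664 in Δ*fpr3*, 1.03 in Δ*fpr3*Δ*fpr4*, 0.878 in Δ*fpr3*Δ*trf5* and 1.28 in Δ*fpr3*Δ*fpr4*Δ*trf5*. *HSP10*, with 81 to 139 reads in the survey, is 321 bases long and *HSP60* 1719. In Δ*fpr3*Δ*fpr4* against wild type, genes of up to 500 bases had a median of 0.13. Those of 1500 to 2000 bases had -0.12. The part of gene length in these ratios was not tested. *HSP82* fell by 0.62 while *HSC82*, which makes nearly the same protein, had -0.15 and was not called. Among the co-chaperones of Hsp90, *STI1* fell by 0.50, *SBA1*, the yeast p23, by 0.65 and *CDC37* by 0.50. *SIS1* fell by 0.60, *ZUO1*, the J-protein of the ribosome, by 0.42 and *KAR2*, the Hsp70 of the endoplasmic reticulum, by 0.45. *BTN2* fell by 1.32, from 75 to 27 reads. After rescaling, 7 of the 10 were still called, without *ZUO1*, *KAR2* and *CDC37*, and *HSF1* was called as higher. Rescaled, 7.51% of all genes were called higher and 6.35% lower. This pair and the pairs of Δ*fpr3* and Δ*fpr4* share the wild-type library.

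*BTN2* was highest in wild type in all of the survey. Its RPKM was 55.6 there, 35.9 in Δ*sir2*, 21.7 in Δ*fpr3*Δ*fpr4*, 24.0 in Δ*fpr4* and 37.1 in Δ*fpr3*, then 24.8 and 16.8 in the libraries without Trf5. Wild type was above all 4 survey mutants for 13 members, as it was for 29.9% of genes at large. It was below all 4 for 5 members, against 13.7% of genes.

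In the control Δ*sir2*, 3 of the 41 members tested rose and 2 fell, where 5.2% of all genes rose and 14.6% fell (19.8% in all). *HCH1* rose from 190.1 to 371 RPKM (log2 fold change 0.96, 95% interval 0.61 to 1.33), *HSP82* from 116 to 172 and *HSP10* from 237 to 348. *HSP42*, a small heat shock protein that sorts aggregates, fell from 93 to 46 reads (log2 fold change -1.18, 95% interval -1.74 to -0.68), and *SBA1* fell by 0.60. *HSP26* was too shallow to test. The median gene stood at -0.13 and the median member at 0.03. Rescaling added *HSC82*, *YDJ1*, *SIS1*, *AHA1* and *CCT3* to those called higher, which made 8 higher and 2 lower. Of all genes 8.96% were then called higher and 9.59% lower.

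Fpr4 was also compared in cells already without Fpr3. With Trf5 present, loss of Fpr4 (Δ*fpr3*Δ*fpr4* against Δ*fpr3*) lowered 3 members and raised 1, where 4.9% of genes fell and 5.09% rose (9.99% in all). *HSP82* fell from 333 to 162 reads (log2 fold change -0.92, 95% interval -1.20 to -0.65), *HSP60* from 686 to 421 and *CCT6*, a CCT subunit, from 261 to 161. *HSF1* (chromosome VII, 368753 to 371254) rose from 47 to 92 reads (log2 fold change 1.04, 95% interval 0.56 to 1.62, adjusted p = 0.000456 by the chi-square test). *HSF1* RPKM was highest in Δ*fpr3*Δ*fpr4*, at 36.4, and was 24.5 in wild type, 21.2 in Δ*sir2*, 22.2 in Δ*fpr4* and 17.2 in Δ*fpr3*, then 26.3 in Δ*fpr3*Δ*trf5* and 30.6 in Δ*fpr3*Δ*fpr4*Δ*trf5*. Of the 14 members with the Hsf1 repeat, 0 rose and 1 fell in this pair. The 28 members without it held 1 that rose, which was *HSF1* itself, and 2 that fell, *HSP82* and *CCT6*. *HSP82* has the shorter form of the repeat. Whether targets of Hsf1 changed along with *HSF1* RNA was not tested. The same 4 members were called after rescaling, where 4.83% of all genes were called higher and 5.15% lower.

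The study lost Fpr4 in cells without Fpr3 and Trf5 to look for RNAs that depend on it when neither its paralog nor TRAMP5 can mask the effect. Here more members were called. In Δ*fpr3*Δ*fpr4*Δ*trf5* relative to Δ*fpr3*Δ*trf5*, 15 members fell and 2 rose, where 7.42% of all genes fell and 20.7% rose (28.1% in all). The median member had -0.35 and the median gene 0.20. Abundant constitutive genes were among those that fell. *SSA2* fell from 3416 to 1736 RPKM (log2 fold change -0.98, 95% interval -1.05 to -0.90), *HSC82* from 1919 to 1105 and *SSE1* from 1316 to 797. *STI1* fell furthest, from 333 to 123 reads, with a log2 fold change of -1.05 (95% interval -1.36 to -0.75).

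The falls crossed compartments. At the ribosome *SSB1* fell by 0.69, *SSB2* by 0.44 and *SSZ1*, an Hsp70 that pairs with Zuo1, by 0.89. *ZUO1* had 0.16 and was not called. In mitochondria *HSP60* and *SSC1* fell by 0.83 and 0.85. In the endoplasmic reticulum *KAR2* fell by 0.77 and *LHS1*, its exchange factor, by 0.66. *SSA1* and *HSP82* were the stress-induced members that fell, by 0.83 and 0.90. *CCT3* and *CCT7* were the CCT subunits that fell, by 0.40 and 0.67. The members that rose were both stress-induced. *SSE2*, the inducible paralog of *SSE1*, went from 18 to 30 reads, and *HSP26* went from 0 to 8 reads. *HSP26* was 3.48-fold higher if the 0 is set to a floor of 3 reads, a bound that leaves out the counting error of the 8. The median of the 10 stress-induced members was 0.13, also with *HSP26* set at that bound, and that of the constitutive members was -0.36.

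Gene length moved with this comparison. Over 4733 genes the Spearman correlation of length and log2 fold change was -0.35, against -0.05 for loss of Fpr4 with Trf5 present, and these are descriptions across genes of the same libraries. The members are long, with 20 of them between 1500 and 2000 bases. In that range the median member had -0.42 and the median gene 0.12. In the range from 2000 to 3000 bases the 9 members had -0.66 and all genes -0.02. Adjusted to the median of genes of like length, 23 members were called lower and 2 higher, where 11.9% of genes were called lower and 10.4% higher. Rescaling to a median of 0 gave 22 lower and 1 higher, where 13.7% of genes were lower and 13.1% higher. The adjustment for length was chosen after the data were seen, and the part that the library's tilt toward short genes plays beyond it was not tested.

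**Figure D4:**
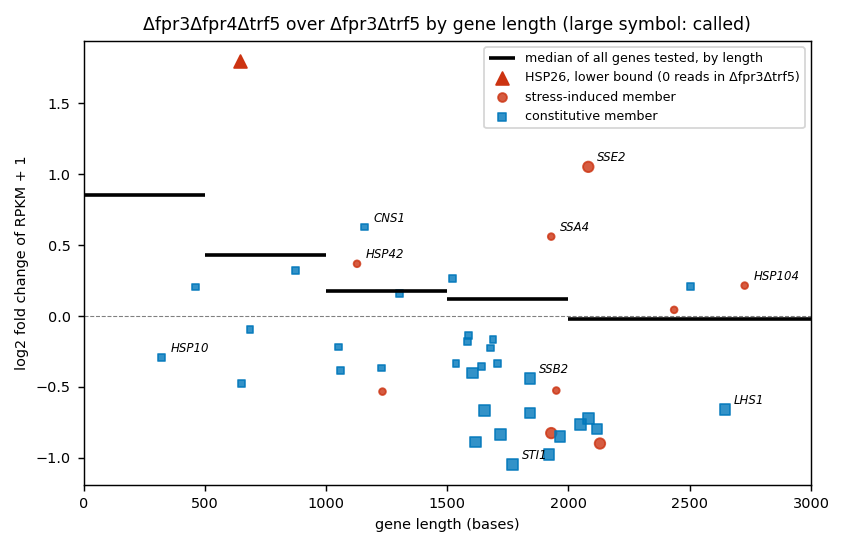
Log2 fold change of RPKM + 1 in Δ*fpr3*Δ*fpr4*Δ*trf5* over Δ*fpr3*Δ*trf5* (vertical) against gene length in bases (horizontal), with black lines for the median of all genes in each range of length, circles for stress-induced and squares for constitutive members, and large symbols for calls. The called constitutive members between 1500 and 3000 bases lie between -1.05 and -0.40, under the lines at 0.12 and -0.02, and the triangle marks *HSP26* with its 0 reads set to a floor of 3.

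Whether loss of Fpr4 acts differently without Trf5 was tested as a difference of the log ratios of these pairs. By the rule of an adjusted p below 0.05 and a difference of at least 1 on the log2 scale, 0 members were called, against 10.8% of genes (8.68% higher and 2.14% lower without Trf5). In this Wald test 13 of the 42 had an adjusted p below 0.05 at any difference, against 19.9% of genes. Of the 13, 12 were more negative without Trf5 and *ZUO1* was more positive, where 6.9% of genes were more negative and 13% more positive. *HSC82* had -0.01 with Trf5 and -0.80 without it, a difference of -0.79 ± 0.05 (SE from counting error, adjusted p = 5.02e-45 by the Wald test). *SSA2* had -0.11 and -0.98, a difference of -0.87 ± 0.04. With a smallest difference of 0.5 in place of 1, 9 members were called lower and 0 higher, where 5.21% of genes were lower and 11.8% higher. *HSP82* fell in both settings and *HSP60* fell in both, with differences of 0.02 ± 0.22 and -0.25 ± 0.14.

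For loss of Trf5 with Fpr4 present, Δ*fpr3*Δ*trf5* was set against Δ*fpr3*, a pair that also differs in strain background and preparation. In this pair the called members divided by class. All 4 members that fell were stress-induced and all 3 that rose were constitutive, where 7.97% of all genes fell and 8.26% rose (16.2% in all). *HSP42* fell from 88 to 19 reads, a log2 fold change of -1.75 (95% interval -2.59 to -1.07), and *SSE2* from 79 to 18, a log2 fold change of -1.63. *HSP104*, the disaggregase (chromosome XII, 88623 to 91349), fell from 679 to 228 reads, a log2 fold change of -1.15 (95% interval -1.38 to -0.94). *SSA1* fell from 818 to 491 RPKM. *AHA1*, an activator of Hsp90, rose from 58.2 to 125 RPKM, *HSP10* from 242 to 396 and *CCT7* from 90.2 to 131. The median of the stress-induced members was -0.65, or -0.57 with *HSP26* at its bound, and that of the constitutive members was 0.01. All 7 calls remained after rescaling, where 8.05% of all genes were called higher and 8.16% lower. By summed reads the stress-induced class lost 0.70 relative to the constitutive class (95% interval -0.80 to -0.61). That sum rests mostly on *SSA1* and *HSP104*, with 1725 and 679 of the 3036 reads of the class in Δ*fpr3*.

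The same 3 genes *HSP42*, *HSP104* and *SSA1* fell again when Trf5 was lost in cells without both paralogs (Δ*fpr3*Δ*fpr4*Δ*trf5* relative to Δ*fpr3*Δ*fpr4*), a comparison that shares no library with the one above but does share the strain background. They are 75% of the 4 that fell there and 23.1% of the 13 that fell here. In this later pair 9.39% of all genes fell, 23.1% rose and 32.5% were called. The overlap of the 2 pairs among all genes was not computed. *HSP42* had 81 reads against 19, *HSP104* 580 against 203 and *SSA1* 1341 against 335. The other 10 that fell were constitutive, *SSA2* (log2 fold change -1.08), *STI1* (-1.03), *SSE1* (-0.90), *SSZ1* (-0.88), *HSC82* (-0.88), *CCT8* (-0.71), *SSC1* (-0.53), *SSB1* (-0.49), *CCT3* (-0.44) and *YDJ1* (-0.41). *CNS1*, an essential co-chaperone of Hsp90 and Hsp70, rose from 15 to 30 reads, *HCH1* had 88 and 91 reads in libraries of unequal depth and rose by 0.73, and *SSA4* rose on 7 and 13 reads. *SSA4* was no longer called after rescaling, with TMM factors, by the exact binomial test or after adjustment for length, and *HCH1* was not called with TMM factors. After rescaling, 18 members were called lower and 2 higher, with *SSB2*, *KAR2*, *CCT2*, *CCT5* and *CCT7* added to those that fell. Of all genes 16.5% were then called lower and 15.3% higher. The spread by length was again present (Spearman correlation -0.39), and after adjustment for length *HCH1* stood at -0.056.

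Both libraries without Trf5 lay below all 5 survey libraries for 9 members, *HSP42*, *HSP78*, *HSP104*, *SSA1*, *HSC82*, *SSA2*, *SSE1*, *CCT2* and *CCT8*, as they did for 8.65% of all genes. They lay above all 5 for *SSA3* and *AHA1*, against 14.8% of genes. *HSP104* RPKM ran from 175 to 228 in the survey and was 102 and 119 without Trf5. *HSP42* was 71.1 to 75.4 in wild type and the *fpr* mutants, 32.8 in Δ*sir2*, and 20.6 and 26.8 without Trf5. *SSE2* was 20.1 to 34.7 in the survey, 10.6 in Δ*fpr3*Δ*trf5* and 23 in Δ*fpr3*Δ*fpr4*Δ*trf5*, so that only the first of these lay outside the survey's range. *HSP78*, the mitochondrial relative of Hsp104, was 14.3 to 22.5 and then 12.0 and 12.4, and was not called in any pair. Of the 14 genes with the Hsf1 repeat, 3 fell and 2 rose when Trf5 was lost with Fpr4 present. The 28 members without it held 1 that fell and 1 that rose, where 7.97% of all genes fell and 8.26% rose. The stress-induced *BTN2* and *HSP78* carry the repeat too and were not called, and *SSE2*, which was, has the shorter form only.

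Paralogs that share a function differed in how stable their proportions were, and a proportion within a library does not depend on its total. *SSA1* made up 14.3% of the reads of *SSA1* and *SSA2* in wild type (95% Wilson interval 13.7 to 15.0), 15.3% in Δ*sir2*, 15.9% in Δ*fpr3*Δ*fpr4*, 17.3% in Δ*fpr3* and 19.2% (18.5 to 19.9) in Δ*fpr4*. It was 12.6% in Δ*fpr3*Δ*trf5* and 13.8% in Δ*fpr3*Δ*fpr4*Δ*trf5*. The shares differed between libraries by a chi-square test of homogeneity over 5 pairs of paralogs (adjusted p = 3.87e-36). *SSA1* and *SSA2* are 96.8% identical over their coding sequence, so reads from the parts that do not differ may have been dropped.

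*HSP82* held 4.95% of the Hsp90 reads in wild type, 6.0% in Δ*sir2*, 6.16% in Δ*fpr4* and 6.59% in Δ*fpr3*. In Δ*fpr3*Δ*fpr4* it held 3.60% (95% Wilson interval 3.10 to 4.19), below the interval of every other library, and in the libraries without Trf5 it held 6.72% and 6.25% (adjusted p = 6.97e-11 by the test of homogeneity). *SSE2* held between 0.796% of its pair in Δ*fpr3*Δ*trf5* and 2.80% in Δ*fpr3*Δ*fpr4*Δ*trf5*. *SSB1* held 57.9 to 58.6% of its pair in 6 of the libraries, an adjusted p of 0.863 over the 5 of the survey by that test. Only Δ*fpr3*Δ*fpr4*Δ*trf5* stood off, at 54.0% (52.5 to 55.4). *SSA3* and *SSA4* had 7 to 27 reads each per library, and the test of their proportion gave an adjusted p of 0.024 over 7 libraries and 0.0942 over the 5 of the survey.

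**Figure D5:**
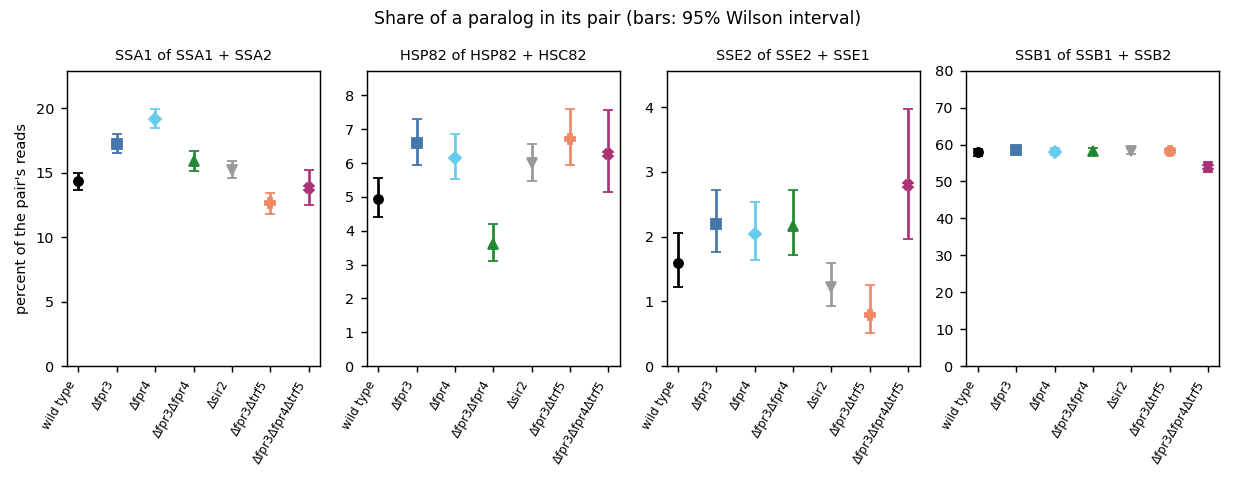
Share of a paralog in the reads of its pair in percent (vertical, from 0, a scale for each panel) in the 7 libraries, with 95% Wilson intervals. *SSA1* ranges from 12.6 to 19.2% and *HSP82* dips to 3.60% in Δ*fpr3*Δ*fpr4*, while *SSB1* stays at 57.9 to 58.6% except for 54.0% in Δ*fpr3*Δ*fpr4*Δ*trf5*.

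The 8 subunits of the CCT ring, which assemble in equal number, were measured within 2.03 to 3.57 times of each other per library in RPKM. *CCT7* was the lowest subunit in 6 of 7 libraries and *TCP1* the highest in 5. *CCT7* had 106 RPKM in wild type, 107 in Δ*sir2*, 98.3 in Δ*fpr3*Δ*fpr4*, 75.7 in Δ*fpr4*, 90.2 in Δ*fpr3*, 131 in Δ*fpr3*Δ*trf5* and 81.9 in Δ*fpr3*Δ*fpr4*Δ*trf5*. The summed CCT share of reads was 0.236 to 0.271% in the survey and 0.200% (95% Wilson interval 0.190 to 0.212) in Δ*fpr3*Δ*fpr4*Δ*trf5*. *ZUO1* stood at 0.653 to 0.806 of *SSZ1* in RPKM in 6 libraries and at 1.37 in Δ*fpr3*Δ*fpr4*Δ*trf5*, and *ZUO1* is the shorter gene of that pair, with 1302 against 1617 bases. Over the 7 libraries *STI1* ran from 0.10 of *HSC82* in Δ*fpr3*Δ*fpr4*Δ*trf5* to 0.143 in wild type, and *LHS1* from 0.0850 to 0.125 of *KAR2*.

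Related genes outside the list were counted in the same fits. The targets of Msn2 and Msn4 that are not members went in opposite directions between pairs, but the pairs share libraries. Δ*fpr3*Δ*trf5* is the first library of the pair for loss of Trf5 with Fpr4 present. It is the second of the pair for loss of Fpr4 without Trf5, so low values in it lower the one and raise the other. When Trf5 was lost with Fpr4 present, 0 rose and 9 of 14 tested fell, with a median of -1.56, where 7.97% of all genes fell. In cells without both paralogs 2 rose and 9 of 14 fell, where 23.1 and 9.39% of genes did so. In Δ*sir2* 0 rose and 8 of 13 fell, where 14.6% of genes fell. On loss of Fpr4, 0 fell in any of the following. Against wild type 6 of 15 rose, where 3.87% of genes rose, in cells without Fpr3 7 of 15, where 5.09% rose, and in cells without Fpr3 and Trf5 7 of 14, with a median of 1.02, where 20.7% rose. *GPH1*, glycogen phosphorylase, was at 60 reads in wild type, 203 in Δ*fpr3*Δ*fpr4*, 216 in Δ*fpr4*, 105 in Δ*fpr3* and only 11 in Δ*fpr3*Δ*trf5*. *HSP12*, a small membrane protein of the stress response, had 0 reads in Δ*fpr3*Δ*trf5* and 69 in Δ*fpr3*Δ*fpr4*Δ*trf5*. It was 30.02-fold higher if the 0 is set to a floor of 3 reads, which leaves out the counting error of the 69. *HSP12* is 330 bases long. Of 11 subunits of prefoldin, its relatives and the nascent polypeptide-associated complex, 5 rose and 0 fell in that comparison, with a median of 0.73. These 11 genes are 330 to 861 bases long, and all genes of up to 500 bases had a median of 0.85 in that comparison. Of 18 genes that Hsf1 keeps on in unstressed cells, 15 of which are members, 1 rose and 6 fell there, and 1 rose and 3 fell when Trf5 was lost with Fpr4 present. In Δ*fpr3*Δ*fpr4*Δ*trf5* relative to Δ*fpr3*Δ*trf5*, 1 of the 6 other co-chaperones of Hsp90 fell and 0 rose, 2 of the 12 other J-proteins rose and 1 fell, and of 14 folding factors of the endoplasmic reticulum 1 rose and 1 fell, where 20.7% of all genes rose and 7.42% fell.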

How the data were processed

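Total RNA of the 7 strains was depleted of ribosomal RNA and sequenced as 100-base pairs by the authors. They aligned the reads to sacCer3 with BWA, dropped reads with a mapping quality under 5, counted fragments with the same coordinates once, and counted properly paired reads on the strand of each Ensembl gene. The deposited read counts per gene are therefore whole numbers, and near-identical paralogs may have lost reads from parts that do not differ. The other column that the authors deposited, headed TPM, is an RPKM. Recomputed from count, gene length and library total, it differed by at most 0.0979% in genes with over 20 reads.

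Groups were taken from the sample labels, with 1 library each. For 8 pairs of libraries the reads of a gene were set against all other reads by a chi-square test with 1 df in genes with more than 5 reads in the pair, with Benjamini-Hochberg adjustment over all genes and a fold of RPKM + 1 of at least 1.3. The test, the adjustment and the read minimum follow the study's methods, which require a fold of RPKM above 1.5; its survey was read at 1.3, the value used here, and 1.5 is an alternative. These p-values measure counting error between 2 libraries. Intervals of folds are exact (Clopper-Pearson) and those of shares are Wilson intervals, at 95%. The difference of 2 log ratios was tested with a Wald test on reads + 0.5. All members of the list were counted, and *FES1*, *MDJ1* and *CCT4*, called in no pair, are named only here. Of related lists at most the 3 called genes with the largest change per comparison are named. The members, classes and lists were chosen with earlier results of these data known. Promoters were read from the RefSeq genome of the same build, in which all 42 members had the same coordinates. Python 3.11.15, scipy 1.17.1 and edgeR 4.0.16 (TMM factors only, as an alternative) were used, and the steps were tested on simulated data.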

Additional observations from a re-analysis of the deposited data

Results flagged for a closer look

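For 13 members the change on loss of Fpr4 differed between cells with and without Trf5 by the Wald test of the difference itself (adjusted p below 0.05), as it did for 931 of 4667 genes (19.9%), although none reached a difference of 1 on the log2 scale. The values below are the log2 change without Trf5 minus that with it, between 4 libraries with no replicate. In cytosolic chaperones the difference was -0.87 for *SSA2*, -0.79 for *HSC82*, -0.58 for *SSA1*, -0.66 for *SSE1*, -0.86 for *STI1*, -0.41 for *YDJ1* and -0.79 for *CCT7*. At the ribosome it was -0.58 for *SSB1*, -0.37 for *SSB2*, -0.78 for *SSZ1* and 0.43 for *ZUO1*. It was -0.55 for the mitochondrial *SSC1* and -0.47 for *KAR2* of the endoplasmic reticulum. The median difference over all genes was 0.19 and over the 42 members -0.22. The longer genes of the Δ*fpr3*Δ*fpr4*Δ*trf5* library were lower as a whole, and the part of this in the differences was not tested.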

How the results depend on the processing

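No paired analysis was possible because each genotype has 1 library. Of 67 calls of members over the 8 pairs, pseudocounts of 0.1 and 5 kept 67 and 66, an exact binomial test 66, no filter on reads 67, rescaling to a median of 0 kept 56, TMM 55, a fold of 1.5 kept 46 and a fold of 2 kept 17. None turned its direction except *HCH1* in Δ*fpr3*Δ*fpr4*Δ*trf5* relative to Δ*fpr3*Δ*fpr4*, at -0.056 after adjustment for gene length, which was chosen after seeing the data. The cause was not tested for any of the changes below.

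The members called for Δ*fpr3* (0) were 2 after rescaling, 1 with TMM, 4 by fold alone with an RPKM of at least 10, and 4 after adjustment for length. Of all genes, 10.8, 10.9, 38.4 and 10.7% were called in these settings, in that order. For Δ*fpr4* (8) they were 1 at a fold of 1.5, 1 at a fold of 2, 3 after rescaling, 3 with TMM, 14 by fold alone and 4 after adjustment for length. The shares of all genes were 9.19, 4.17, 11.5, 11.5, 39.2 and 10.4% in that order. For Δ*fpr3*Δ*fpr4* against wild type (10) they were 6 and 1 at folds of 1.5 and 2, against 10.5 and 4.58% of all genes. For Δ*sir2* (5) they were 3 and 1 at these folds, 10 after rescaling, 10 with TMM, 8 by fold alone and 10 after adjustment for length. The shares of all genes were 14.4, 7.39, 18.5, 18.5, 43.6 and 17.9% in that order. For Δ*fpr3*Δ*fpr4* against Δ*fpr3* (4) they were 1 at a fold of 2 and 9 by fold alone, against 3.45 and 37.4% of all genes. For Δ*fpr3*Δ*fpr4*Δ*trf5* relative to Δ*fpr3*Δ*trf5* (17) they were 3 at a fold of 2, against 14.4% of all genes. For Δ*fpr3*Δ*trf5* against Δ*fpr3* (7) they were 4 at that fold and 11 by fold alone, against 5.68 and 45.7%. For Δ*fpr3*Δ*fpr4*Δ*trf5* relative to Δ*fpr3*Δ*fpr4* (16) they were 6 at a fold of 2, against 16.4%. The Wald test (0) gave 9 at a difference of 0.5 and 3 after rescaling (*SSA2*, *STI1* and *HSF1*). All of these were lower, where 5.21 and 4.05% of all genes were lower and 11.8 and 5.59% higher.

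The median of the stress-induced minus that of the constitutive members (log2) was 0.11 for Δ*fpr3*, 0.22 with RPKM at 10 or more in each of the libraries and -0.049 with *SSA1* and *HSP82* classed as constitutive. For Δ*fpr4* it was 0.27 and 0.17 with those 2 moved, and for Δ*fpr3*Δ*fpr4* 0.02 and 0.13. For Δ*sir2* it was -0.37, -0.24 with an RPKM of at least 10 and -0.054 by summed reads. For loss of Fpr4 with Trf5 it was 0.02 and -0.16 by summed reads. For loss of Fpr4 without Trf5 it was 0.49, 0.12 with an RPKM of at least 10, 0.67 with the 2 genes moved, 0.17 by summed reads and 0.76 after adjustment for length. For loss of Trf5 it was -0.67 and -0.87 with the 2 genes moved, and in cells without both paralogs -0.19, -0.31 with an RPKM of at least 10 and -0.37 by summed reads.

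The proportion of *SSB1* gave an adjusted p of 0.863 and that of *SSA3* 0.0942 by the chi-square test over the 5 survey libraries, past the threshold over all 7. Without mitochondrial genes in the total, the members' share was 3.95% in wild type, 4.17% in Δ*sir2*, 3.66% in Δ*fpr3*Δ*fpr4*, 3.79% in Δ*fpr4*, 3.92% in Δ*fpr3*, 3.72% in Δ*fpr3*Δ*trf5* and 2.40% in Δ*fpr3*Δ*fpr4*Δ*trf5*. Without the 10 largest other genes it was 4.45, 4.65, 4.09, 4.31, 4.43, 4.21 and 2.59% in that order. *HSP26*, *SSA3* and *SSA4*, with 0 to 27 reads per library, are limited by depth.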

Other observations

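Genes named for heat shock or tied to the stress response outside the list were also called. *HSP30*, a plasma membrane protein, had 24 reads in wild type against 219 in Δ*sir2*, 182 in Δ*fpr3*Δ*fpr4*, 200 in Δ*fpr4* and 240 in Δ*fpr3*, log2 fold changes of 2.93 to 3.26 that share the wild-type library. *HSP150*, a cell wall protein, rose from 2448 reads to 3532 in Δ*fpr3* and fell to 1919 in Δ*sir2*. *UBI4*, the inducible polyubiquitin gene, had 61 reads in wild type and rose to 94 in Δ*fpr3*Δ*fpr4*, 167 in Δ*fpr4* and 103 in Δ*fpr3*. It fell from this last value to 43 in Δ*fpr3*Δ*trf5* (log2 fold change -0.83, 95% interval -1.39 to -0.32). *MBF1*, a transcriptional coactivator, rose from 231 reads in Δ*fpr3*Δ*trf5* to 410 in Δ*fpr3*Δ*fpr4*Δ*trf5*, and is 456 bases long. *SCJ1*, a J-protein of the endoplasmic reticulum, fell from 39 reads in wild type to 9 in Δ*fpr3*Δ*fpr4*, a log2 fold change of -1.87 against wild type (95% interval -3.23 to -0.93). *CUR1*, a paralog of *BTN2*, had 31 reads in Δ*fpr3*Δ*trf5* and 9 in Δ*fpr3*Δ*fpr4*Δ*trf5*.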
